A study of Mus musculus with 6 samples.

Results

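The transcriptome described here was that of wild-type mouse LSK cells, the lineage-negative, c-KIT-positive, SCA1-positive cells of bone marrow, and it was chosen by sample label alone. It comprised the 3 libraries labelled wild type, out of 6 in the study. The other 3 libraries came from Brm-/- mice and were not used here. Each wild-type library held polyadenylated RNA of LSK cells sorted from the femurs and tibiae of 1 mouse of the strain background given as C56Bl/6, with no treatment named. Neither age nor sex was given in the sources used here. The 3 mice are named replicates 1, 2 and 3, and values per library are given in that order. They form 1 group, so levels are described without a test, and errors are SDs over the 3 libraries (n = 3) throughout.

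LSK cells are a mixture by design. The gate removes cells that carry surface proteins of mature blood lineages and keeps cells with the stem cell factor receptor c-KIT and the GPI-anchored protein SCA1. Inside it lie the rare long-term stem cells and a larger number of multipotent progenitors, which divide more often and begin to transcribe genes of the myeloid, erythroid, megakaryocyte or lymphoid lineages before they are committed, a state known as lineage priming. A bulk library averages over all of these cells, so a low level from fewer cells of a type and one from less RNA per cell cannot be told apart.

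Reads in genes numbered 36.46, 33.01 and 28.01 M per library, and protein-coding genes held 98.57%, 98.61% and 98.46% of them. Levels are given as CPM, a gene's reads per M reads in genes, which compare a gene between libraries, and as TPM, reads per kilobase of merged exon scaled to the same total in each library over protein-coding genes, which compare genes with each other. A gene counted as on at 1 CPM or more in each library and off at 3 reads or fewer in each library, and the rest lay between. A count of 0 allowed a level of up to 0.0823, 0.0909 and 0.107 CPM per library, for counting error only. Replicate 3 stood apart from the other libraries: the chi-square per degree of freedom of its counts was 40.2 against replicate 1 and 43.8 against replicate 2, while replicates 1 and 2 differed from each other by 18.9. Levels that differed most in that library are given by library, and the main counts are also given without it.

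Of 21974 protein-coding genes, 11325 (51.5%) were on in wild-type LSK cells, 7425 (33.8%) were off and 3224 (14.7%) lay between. No read was seen in any library for 6522 genes. Without replicate 3, 11450 genes were on and 7736 were off. The median gene that was on stood at 44.8 CPM, or 35.0 TPM. Genes at a mean of 1000 CPM or more numbered 49, those from 100 to under 1000 CPM numbered 2746, and those from 10 to under 100 CPM numbered 6449. A further 2530 genes had means from 1 to under 10 CPM. Just inside the limit for on, 8 genes shared a lowest library of 1.01 CPM, among them Afmid, Cdnf and Garnl3, with 46.6% of Afmid overlapped by another gene. Just outside it, 8 genes shared a lowest library of 0.9998 CPM, among them Flt1, which encodes a VEGF receptor, 1700001O22Rik and Gm11361, which has near-identical copies.

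**Figure D1:**
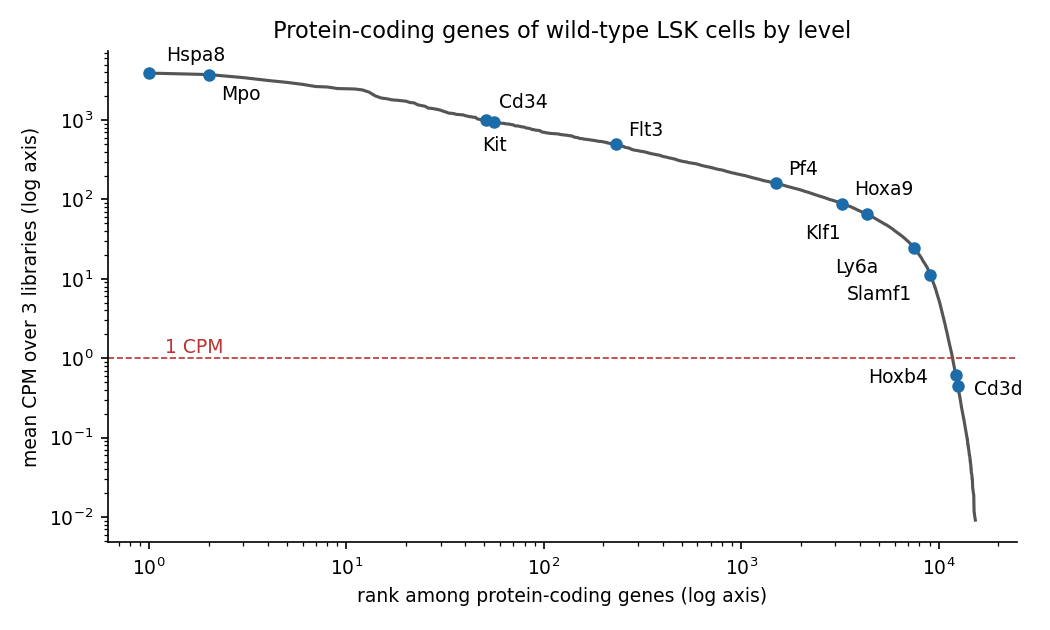
Mean CPM over the 3 wild-type libraries (log axis) of every protein-coding gene with a read, by rank (log axis), with named genes as points and 1 CPM as a dashed line. Hspa8 and Mpo stand at the top, 49 genes lie at 1000 CPM or more, and Ly6a and Slamf1 lie on the steep part of the curve, above the line.

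The reads were spread over many genes. The 10 genes with the highest means held 3.07 ± 0.267% of protein-coding reads, the top 100 held 13.1 ± 0.221% and the top 1000 held 43.7 ± 0.396%. It took 1334 genes to reach 50% of the reads and 5785 genes to reach 90%. The highest mean of any gene was 3908 CPM, and the plot of level by rank shows this flat top.

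The gene with the most reads was Hspa8, the constitutive HSP70 chaperone, at 3890.1, 4365 and 3470.3 CPM. Next was Mpo, the granule enzyme myeloperoxidase, with 144584, 116998 and 104574 reads, that is 3966, 3545 and 3733 CPM. Its highest library was 1.12 times its lowest. Jun and Fos, which together form the transcription factor AP-1, stood at 3429 ± 708 CPM and 2612 ± 884 CPM. H3f3b, a gene for the replacement histone H3.3, had 3726, 3821 and 1924 CPM, lowest in replicate 3. The cytoskeletal actin gene Actb had 2983 ± 219 CPM, and the HSP90 gene Hsp90ab1 had 2647 ± 185 CPM. Classical MHC class I heavy chains were high in each library, with H2-D1 at 2816 ± 147 CPM and H2-K1 at 2254 ± 95.8 CPM. Adgrg1, an adhesion G-protein-coupled receptor (GPR56) that is known from blood stem cells, was also among the leading 10 at 2472, 2749 and 2272 CPM. Serinc3, a multipass membrane protein, was the steadiest of the leading genes at 2481 ± 13.1 CPM.

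The rest of the 25 genes with the most reads were mainly housekeeping genes. Translation was represented by Eef1a1, Eif4g2, Eif5a and the RNA-binding protein genes Cnbp and Hnrnpk, respiration by Atp5b, mt-Co1 and mt-Cytb, and protein turnover by the ubiquitin gene Ubb. Gpx1, which removes hydrogen peroxide, stood at 1779.8 ± 217 CPM, and H2afy, which encodes the histone variant macroH2A1, at 1730.4 ± 93.3 CPM. Dusp1, a phosphatase that switches off MAP kinases, had 1856 ± 509 CPM. Hspa5, the chaperone of the endoplasmic reticulum, was lowest in replicate 3, at 2677, 3053 and 1477 CPM, whereas Hspa1b, an inducible HSP70, was highest there, at 915, 1351 and 3784 CPM. Near-identical copies elsewhere in the genome make the counts of Eef1a1, mt-Co1 and Hspa1b uncertain, since reads that fit several places were not counted.

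Per unit length the order changed. B2m, the light chain shared by MHC class I molecules, was first at 5288 ± 758 TPM, followed by mt-Cytb at 4838 ± 1277 TPM, Gpx1 at 4590.1 ± 443 TPM and mt-Co1 at 4314 ± 1285 TPM. Fos, Actb, Mpo, H2-D1, Jun and H3f3b came next within a narrow band of mean levels, from 3971 TPM to 4155 TPM, and with SDs from 166 (H2-D1) to 1506 (Fos) their order is not resolved by 3 libraries. Ptma, which encodes the small acidic nuclear protein prothymosin alpha, closed the leading 15 at 2970.0 ± 354 TPM.

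All 5 genes checked against the label were on in each library. Mpo (ENSMUSG00000009350.13, GRCm38 chr11:87793581-87804413, plus strand) had 4321, 3952 and 3952 TPM, rank 7 of all protein-coding genes per length. Cd34 (ENSMUSG00000016494.9, chr1:194938819-194961279, plus strand), the sialomucin that marks progenitors and activated stem cells, had 502, 499.6 and 521 TPM. Kit (ENSMUSG00000005672.12, chr5:75574916-75656722, plus strand), the receptor of the gate itself, had 353, 435 and 389 TPM, from 30742, 33504 and 26783 reads. Flt3 (ENSMUSG00000042817.15, chr5:147330741-147400489, minus strand), the receptor tyrosine kinase of multipotent and lymphoid-primed progenitors, had 298, 284 and 308 TPM. Ly6a (ENSMUSG00000075602.10, chr15:74994877-74998031, minus strand), the gene of SCA1, had 57.6, 75.7 and 94.9 TPM, from 678, 789 and 884 reads. The order Mpo, Cd34, Kit, Flt3, Ly6a was the same in each library, and the ranges of neighbours in that order did not overlap. Taking the longest transcript as the length moved Cd34 to 892.4, Kit to 492.7 and Flt3 to 343.0 TPM and kept that order.

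SCA1 is a gate protein, and its gene, Ly6a, ranked 3175 of 21974 per length and 7491 by reads. Its mean of 76.1 TPM lay above the 35.0 TPM of the median gene that was on. Ly6a had 18.6, 23.9 and 31.6 CPM, so that its highest library, replicate 3, was 1.70 times its lowest, replicate 1. Among the other LY6 genes, Ly6e stood at 967 ± 64.4 TPM, Ly6c2, the gene of the LY6C antigen, at 145 ± 12.7 TPM, and Ly6d, a marker of B-lineage-biased progenitors, at 36.9 ± 4.88 TPM. Ly6k and Ly6c1 lay between. Ly6c1 has a near-identical copy, and 47.6% of the exon length of Ly6k overlaps another gene. Ly6g, a neutrophil antigen, was off with 0, 0 and 3 reads, as were Ly6i, Ly6f and Ly6h. The antibody used for SCA1 is labelled LY6A/E, and the product of Ly6e is a different protein from SCA1.

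Genes of stem cell and of progenitor surface proteins were both transcribed, the latter at a higher median level per length. In the stem cell surface list, 18 of 19 genes were on, with a median of 35.5 TPM over the list. Among the highest were Itga2b, the platelet integrin CD41, at 322 ± 83.7 TPM, and the tetraspanin Cd81 at 301 ± 22.3 TPM. Cd9, Cd63 and the TGF-beta coreceptor gene Eng stood at 171 TPM, 135 TPM and 129.7 TPM. The genes most used to purify long-term stem cells were lower. Procr, the protein C receptor, had 33.1, 43.3 and 30.2 TPM, and Tek, the angiopoietin receptor, had 30.7, 37.9 and 22.0 TPM. Slamf1, the CD150 antigen, had 5.97, 8.47 and 5.93 TPM, from 359, 451 and 282 reads, and Fgd5 had 10.1, 13.6 and 10.4 TPM. Jam3 lay between, and 36.2% of its exon length overlaps another gene. In the progenitor surface list 12 of 12 genes were on, with a median of 234 TPM. Cd48, the antigen that separates most multipotent progenitors from CD150-positive stem cells, had 807, 719.8 and 984 TPM; no library of Slamf1 came near that range. Cd53, a tetraspanin of leukocytes, stood at 475 TPM, and the TNF receptor family gene Cd27 at 294 TPM. Fcgr3, a receptor for IgG that marks granulocyte-monocyte progenitors, had 52.9, 40.2 and 72.2 TPM.

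**Figure D2:**
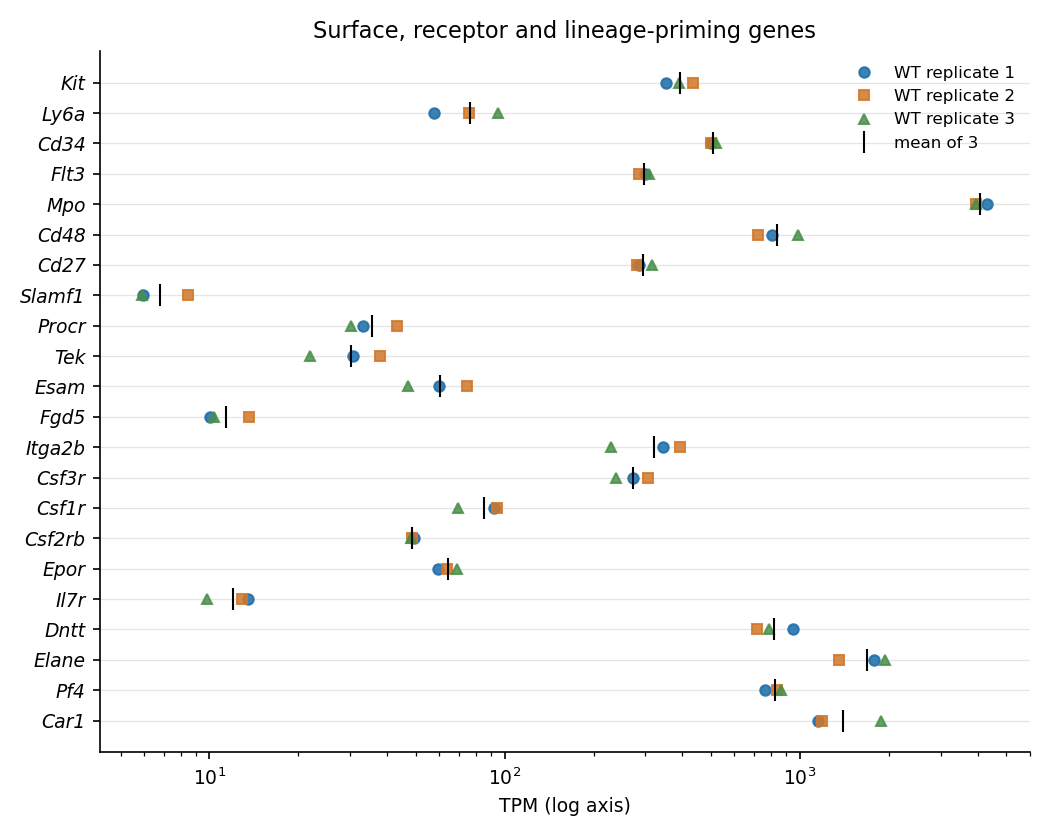
TPM (log axis) of surface and priming genes in each wild-type library, with the mean as a vertical bar. Cd48, Cd34 and Kit stand well to the right of Procr, Tek and Slamf1, and Mpo and Elane stand to the right of every surface gene drawn.

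Genes of several blood lineages were read at once, with the granulocyte programme leading. All 8 genes of the primary granule list were on, with a median of 1220 TPM and a summed level of 7317, 6468 and 7323 CPM. Elane, the gene of neutrophil elastase, had 1776, 1355 and 1949 TPM. Ctsg, which encodes cathepsin G, had 1573, 1319.7 and 1687 TPM, and Prtn3, which encodes proteinase 3, had 866, 688 and 921 TPM. The chaperone gene Calr, which is needed for myeloperoxidase folding, stood at 1671 ± 125 TPM. Calr is a chaperone rather than a granule enzyme. Its mean of 1291 CPM is part of the list's summed level, and its TPM raises the list's median. Lyz2, the lysozyme of myeloid cells, stood at 917 ± 235 TPM, with a near-identical copy, and Ms4a3, a marker of granulocyte-monocyte progenitors, at 135 ± 24.5 TPM. Granule genes made later in the neutrophil series were low. S100a8 and S100a9, which encode the subunits of calprotectin, stood at 17.6 TPM and 28.3 TPM, and Camp, Ltf, Lcn2 and Ngp, of the secondary granules, were not on. The neutrophil list had 5 of 13 genes on, against 8 at a limit of 0.5 CPM and 2 at 2 or 5 CPM, and a summed level of 33.1, 23.1 and 57.4 CPM.

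The lymphoid priming list was on in full, 17 of 17 genes. Its leading gene was Dntt, the terminal transferase that adds bases at antigen receptor joints, with 944, 715 and 785 TPM. Il12a, a subunit of interleukin-12, had 255 ± 34.3 TPM, and the homeobox gene Hhex had 151 ± 7.18 TPM. The genes that act later in lymphoid commitment were read at lower levels. Il7r, the interleukin-7 receptor, had 13.5, 12.8 and 9.85 TPM. Rag2 had 12.9, 7.80 and 11.6 TPM and its partner in V(D)J recombination, Rag1, had 1.29, 0.980 and 0.646 TPM, from 83, 56 and 33 reads. Ccr9, the thymus homing receptor, had 3.15, 2.84 and 6.20 TPM, with 21.5% of its exon length overlapped by another gene. All 4 were nevertheless at 1 CPM or more in each library.

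The red cell and platelet lineages were also represented. Car1, carbonic anhydrase of early erythroid cells, had 1151, 1188 and 1876 TPM, and 11 of the 13 erythroid genes found were on, summing to 921.3, 937.8 and 1330.0 CPM. The erythroid transcription factor genes Gata1 and Klf1 stood at 147 ± 15.2 TPM and 157 ± 32.9 TPM, and Tfr2, the second transferrin receptor, at 215 ± 10.7 TPM. Epor, the erythropoietin receptor, had 59.6, 63.6 and 69.2 TPM. The globin genes Hbb-bs and Hba-a1 stood at 116 TPM and 102 TPM, with near-identical copies that make them uncertain, and Alas2 and Slc4a1 stood at 5.09 TPM and 1.21 TPM. Of the platelet list, 10 of 12 genes were on, summing to 912.9, 1064.0 and 798.9 CPM. A large part of that sum was Itga2b, with a mean of 469 CPM, which is also in the stem cell surface list. Pf4, platelet factor 4, had 762, 839 and 864 TPM. Ppbp, another platelet chemokine, varied more, with 6.99, 3.64 and 41.8 CPM. Vwf had 17.3, 26.99 and 11.8 TPM, and Gp9 and Gp5, subunits of the receptor for its product, had 93.4 TPM and 86.9 TPM. Gp1bb, a further subunit, had no read, and 92.9% of its exon length overlaps another gene, where reads count as ambiguous.

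Receptors for cytokines were widely transcribed while their ligands mostly were not. In the receptor list 31 of 36 genes were on, or 32 without replicate 3, and among the highest were Kit, Flt3, Ifngr1 at 322 ± 35.5 TPM, Csf3r, the G-CSF receptor, at 271 ± 33.8 TPM, and Ifnar2 at 174 ± 22.6 TPM. Csf1r, the receptor of macrophages, had 85.4 ± 13.6 TPM. Prlr, the prolactin receptor, was the only receptor that was off, with no read, and Il2ra, Il2rb, Il5ra and Il9r lay between. Of 28 cytokine and niche ligand genes, 8 were on, or 5 at a limit of 5 CPM, 11 lay between and 9 were off. Angpt1, the ligand of TEK, had 167, 188 and 169 TPM, and Tgfb1 had 173, 179 and 153 TPM. Both were far above the others, of which Spp1 was next at 33.8 ± 14.8 TPM. The ligand of c-KIT, Kitl, had only 31, 56 and 9 reads, and Flt3l, the ligand of FLT3, had 5.38, 6.86 and 4.37 TPM, with 22.1% of its exon length overlapped. Thpo, the gene of thrombopoietin, was off with 2, 0 and 2 reads, and Epo, Il3, Csf3, Ifnb1, Wnt3a and Wnt5a had no read. Il5 and Il11 were off as well, with 27.1% of Il5 overlapped.

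Adhesion and homing genes were on in 24 of 27 cases. Cd47, the signal against phagocytosis, had 433 ± 9.97 TPM, Selplg, the selectin ligand PSGL1, had 389 ± 4.24 TPM, and Itgb1, the common integrin beta chain, had 295 ± 18.7 TPM. Cxcr4, the receptor that holds stem cells in the marrow, had 58.7, 59.2 and 89.8 TPM. Itga4, which pairs with ITGB1 to bind VCAM1, had 24.3, 33.1 and 38.4 TPM. Cdh2 and Jam3 were not on, and 68.7% of the exon length of Itgam overlaps another gene, so its 4.59 TPM may miss reads.

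Transcription factors were examined as 527 genes in 46 families. Of these 267 (50.7%) were on, 103 lay between and 157 (29.8%) were off, shares close in size to those of all protein-coding genes, and without replicate 3 the count on was 270. The median factor that was on stood at 25.1 TPM. Fos had 3288, 5894 and 3282 TPM and Jun had 3054, 4578 and 4376 TPM. These stood apart from all others in every library, but their order relative to each other reversed in replicate 3. Lmo2, a bridging protein of the stem cell complex with TAL1, GATA factors and LDB1, had 957, 982 and 922 TPM. Myc, a driver of growth and ribosome production, had 892, 938 and 907 TPM, and Junb had 779, 844 and 1065 TPM. The ranges of Lmo2 and Myc overlapped, and that of Junb spanned both. The immediate-early factors Egr1, Klf6 and Klf2 each peaked in replicate 2, with Klf2 at 406, 991 and 405 TPM.

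**Figure D3:**
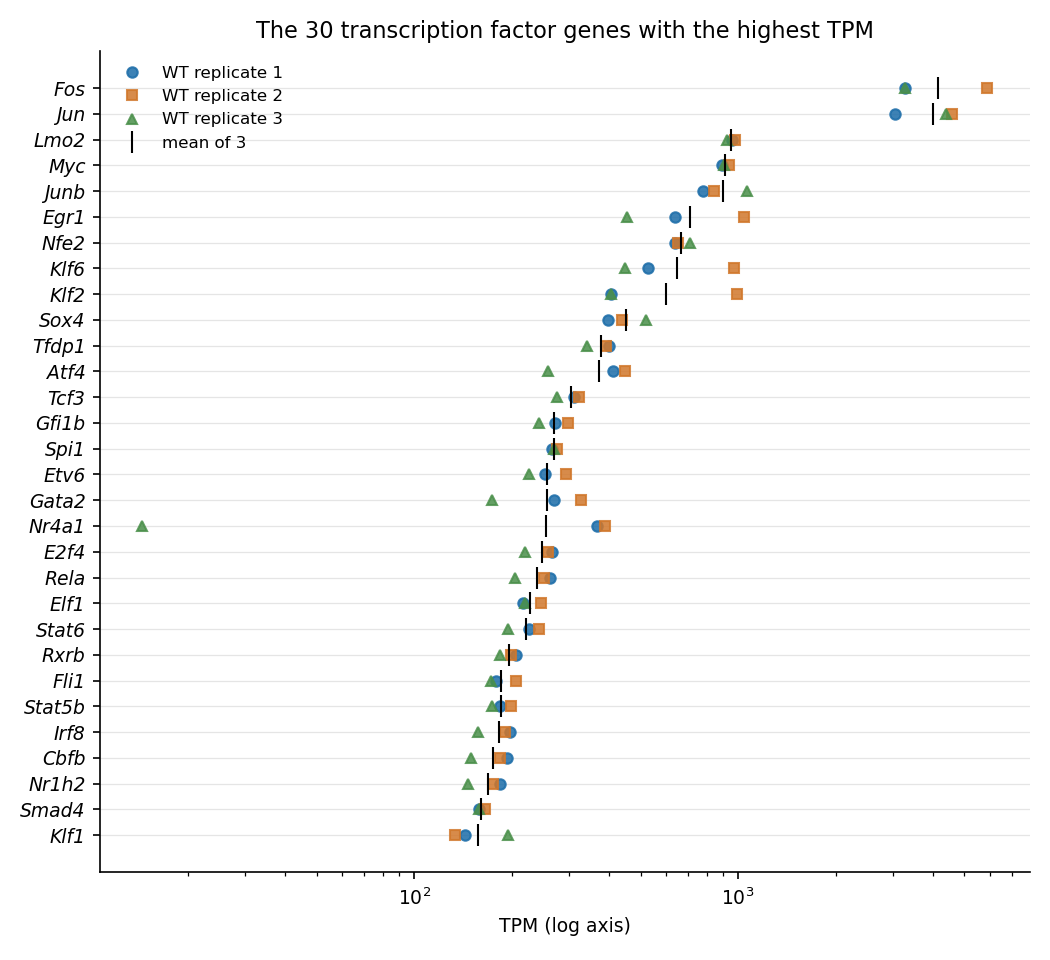
TPM (log axis) of the 30 transcription factor genes with the highest mean, in each wild-type library, with the mean as a vertical bar. Fos and Jun lie to the right of all others in each library, Lmo2, Myc and Nfe2 are tightly grouped, and Nr4a1 in replicate 3 lies far below its other values.

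Among factors of blood lineages, Nfe2, of the erythroid and megakaryocyte series, had 637, 650.4 and 709 TPM. Gfi1b, a repressor in the same lineages, had 271 ± 28.4 TPM, and Spi1, the master factor of myeloid cells (PU.1), had 266, 275 and 269 TPM. Irf8, of monocytes and dendritic cells, stood at 182 ± 21.3 TPM. Sox4, a factor of early lymphoid and progenitor cells, stood at 451 ± 61.7 TPM, with 54.6% of its exon length overlapped by another gene, and Tcf3, which encodes the E2A proteins of lymphoid development, at 304 ± 24.1 TPM. Gata2, the GATA factor of stem cells, had 269.7, 328 and 174 TPM, lowest in replicate 3, while Gata3 stood at 14.9 ± 3.01 TPM. Etv6 and Fli1, ETS factors of stem cells, had 257 ± 34.5 TPM and 186 ± 18.4 TPM. Atf4, of the amino acid response, had 411, 448 and 258 TPM. Tfdp1, the partner of E2F proteins, had 378 ± 32.2 TPM. The myeloid list of factors had 12 of 13 on, the erythroid and megakaryocyte list 9 of 10, and the lymphoid list 14 of 21, or 17 without replicate 3. Cebpa and Cebpe, which act in turn in granulocyte development, had 38.4 ± 2.54 TPM and 6.02 ± 2.23 TPM. In the lymphoid list 7 genes lay between, among them Pax5, Ebf1, Eomes, Tbx21, Lef1 and Ikzf3, and none was off. Ikzf5 lay between, with 84.5% of its exon length overlapping another gene.

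Factors that are used to define blood stem cells were mostly on, at a wide range of levels. The list had 28 of 30 genes on, with a median of 41.6 TPM. Myb, needed for definitive blood formation, had 153 ± 19.7 TPM, Meis1, a partner of HOX proteins, had 73.8 ± 9.35 TPM, and Runx1 had 43.1 ± 6.77 TPM. Hlf, a factor restricted to the most immature cells, had 32.9, 42.3 and 45.3 TPM. Mecom, which encodes EVI1, had 10.5, 12.3 and 8.76 TPM, and Prdm16 had 4.92, 7.83 and 7.75 TPM. Tal1 and Erg stood at 31.4 ± 2.99 TPM and 28.8 ± 3.56 TPM.

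The HOX clusters were split. In the HOXA cluster 6 of 11 genes were on: Hoxa9 led with 60.7, 59.2 and 57.7 TPM, from 3308, 2855 and 2487 reads, followed by Hoxa7 at 37.5 ± 3.74 TPM, Hoxa5 at 14.8 ± 2.17 TPM, Hoxa6 at 13.2 ± 3.03 TPM, Hoxa10 at 12.02 ± 0.885 TPM and Hoxa3 at 1.44 ± 0.286 TPM. Hoxa6 differed from both Hoxa5 and Hoxa10 by less than its SD. Exon length overlapped by another gene was 20.4% for Hoxa7 and 27.1% for Hoxa3. Hoxa11 and Hoxa13, at the 5′ end of the cluster, had no read, with 35.0% of Hoxa11 overlapped. None of 10 HOXB genes was on, and the 2 stem cell genes among them had few reads, 22, 25 and 14 reads for Hoxb4 and 21, 9 and 17 reads for Hoxb5. None of 9 HOXC genes and none of 9 HOXD genes was on, and all 9 HOXD genes were off. The summed level of the HOXA cluster was 145.7, 140.8 and 137.9 CPM and that of the HOXB cluster 1.865, 1.697 and 1.499 CPM.

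Some families, drawn by gene symbol, were on in full and others not at all. The C/EBP family as drawn includes Cebpz, its highest member by TPM, whose place in it rests on the symbol alone. All members were on in the IRF (9 of 9), STAT (7 of 7), E2F and DP (10 of 10), C/EBP (6 of 6), NF-kB (5 of 5) and RUNX and CBFB (4 of 4) families, and 36 of 39 ZBTB genes were on. At the other end, none was on among 9 PAX, 16 T-box, 12 LIM homeodomain, 6 DLX, 6 IRX, 18 neural bHLH and 4 myogenic bHLH genes. Single members stood out in families that were mostly not on. Nkx2-3, a homeobox gene of spleen and gut that is known from blood stem cells, was the only one of 14 NKX genes on, at 34.6, 48.2 and 22.4 TPM. Six5 was the only one on of the 6 genes of its homeobox family, and Tead2 the only one of 4 TEAD genes on. Gata1, Gata2 and Gata3 were on and Gata4, Gata5 and Gata6 off.

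Genes of cell division were on throughout. All 22 genes of the G1 and S phase list and all 18 of the G2 and M phase list were on, at median levels of 166 and 150 TPM. Mcm6, a subunit of the replicative helicase, had 911, 933 and 759 TPM, and Mcm3 and Mcm5 had 741 ± 81.7 TPM and 640.4 ± 72.6 TPM. Cdc20, which activates the anaphase-promoting complex, had 462, 488 and 492 TPM, and Ccnb2, a mitotic cyclin, had 386 ± 10.5 TPM. Mki67, the proliferation antigen, had 70.3, 74.4 and 58.6 TPM. Of 10 inhibitor genes 8 were on. Cdkn1c, the inhibitor p57 of quiescent stem cells, had 1.96, 1.99 and 3.05 TPM, from 39, 35 and 48 reads, with 30.7% of its exon length overlapped. Cdkn1b, p27, had 19.9, 17.4 and 18.1 TPM. Cdkn1a, p21, was less even, with 83.3, 59.2 and 22.8 TPM. Cdkn2a and Cdkn2b, the neighbouring genes of the INK4 locus, had no read in any library.

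Where related genes can do the same job, 1 member often supplied most of the transcripts per length. In 24 of 27 such sets the same gene was highest in each library. Smarca4 held 79.1% of the summed TPM of the SWI/SNF ATPase genes. It had 178.5, 199.7 and 149.8 TPM against 45.1, 56.2 and 38.7 TPM for Smarca2. With the longest transcript as the length, the means lay closer, at 132.0 and 83.1 TPM. The size of that share therefore depends on the length used. Dnmt1, the maintenance DNA methyltransferase, held 68.1% of its set, Dnmt3b 24.9% and Dnmt3a 7.01%. Ezh2 held 64.3% against Ezh1, and Bmi1 97.2% against Pcgf2. In glycolysis Aldoa held 97.8%, Pkm 98.4% and Ldha 93.1% of their sets, and Bmi1, Pkm and Ldha have near-identical copies that make their counts uncertain. Slc2a3 held 59.6% of the glucose transporter set and Slc2a1 40.2%. Hk3, the hexokinase of myeloid cells, held 60.4% and Hk1 35.9%, but Hk1 was highest with the longest transcript as the length. Mcl1 held 86.1% of the survival set of BCL2 relatives and Myc 87.3% of the MYC set. Lmnb1 held 63.8% of the lamin set and Lmna 2.51%. Cdk4 had 831, 800.1 and 840.0 TPM against 85.1, 100.4 and 90.3 TPM for Cdk6.

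Some sets had no clear leader. The 3 TET genes, which oxidise methylcytosine, stood at 12.5 ± 0.754 TPM, 13.3 ± 1.69 TPM and 13.7 ± 2.03 TPM for Tet1, Tet2 and Tet3, within their SDs, and the highest of them differed between libraries. Among D cyclins Ccnd2 held 50.7% and Ccnd3 46.9%, with 120.0, 119 and 98.7 TPM against 116, 119 and 80.8 TPM, and Ccnd1 held 2.39%. Notch2 held 51.2% and Notch1 45.8% of the NOTCH set, and Notch1 was highest without replicate 3 or with the longest transcript as the length. The ranges of Ccnd2 and Ccnd3 overlapped.

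Mature cell types and marrow stroma were checked by their markers, since a sort can carry other cells along. Over all protein-coding genes 51.5% were on. The T cell and stromal lists, with 46.7% on in each, and the mast cell list, with 53.8%, lay near that share. Those counts are therefore not read as a result about the cells. Of the T cell genes, Cd3e and Cd8b1 had no read, Cd2 was off, and Cd3d had 23, 9 and 12 reads. Cd247, another chain of the receptor complex, had 4.53, 2.18 and 2.89 CPM and the coreceptor gene Cd4 had 3.76, 4.18 and 3.89 CPM, both on. The constant regions of the receptor chains, Trbc1 and Tcrg-C1, are annotated outside the protein-coding class. They had 20.5, 15.1 and 12.2 CPM and 8.72, 7.54 and 6.32 CPM. The T cell list had 7 of 15 genes on, or 2 at a limit of 5 CPM, led by the signalling genes Lck at 65.7 ± 9.59 TPM and Lat at 51.1 ± 5.35 TPM, and summed to 125.9, 108.0 and 104.2 CPM. Among B lineage genes 9 of 14 were on, against 5 at a limit of 2 CPM, 3 at 5 CPM and 10 without replicate 3. Cd79b, a chain of the B cell receptor, had 148, 135 and 185 TPM, and Jchain, the joining chain of secreted antibodies, had 117, 129 and 33.9 CPM, lowest in replicate 3. Pax5 and Ms4a1, which encodes CD20, were not on. That list summed to 213.1, 214.0 and 129.4 CPM. In the NK list 3 of 10 genes were on, or 5 without replicate 3. Nkg7, a cytotoxic granule protein that is also made outside NK cells, had 1044, 924 and 1006 TPM, while Ncr1 had 8, 7 and 6 reads. The list summed to 272.0, 238.6 and 269.5 CPM, and most of that was Nkg7, with a mean of 244 CPM.

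Macrophage markers were on in 11 of 16 cases with a sum of 477.6, 404.5 and 379.2 CPM. Siglec1, of tissue macrophages, had no read, the complement genes C1qa, C1qb and C1qc lay between, and Cd68 had 82.6, 72.6 and 61.3 TPM. Others that were on included Ly6c2, Cd163 and Ccr2, at means of 106, 37.4 and 30.1 CPM. Vcam1, Cx3cr1 and Adgre1 were on too, at means of 19.2, 15.2 and 3.06 CPM. The dendritic cell and MHC class II list had 11 of 14 on, and its sum was 445.7, 517.1 and 870.2 CPM, highest in replicate 3. Cd74, the invariant chain, had 65.1, 101 and 197 CPM, and H2-Ab1 had 75.02, 105 and 221 CPM. Of mast cell, basophil and eosinophil genes 7 of 13 (53.8%) were on, near the 51.5% of all protein-coding genes. Cpa3, the mast cell carboxypeptidase, had 332, 304 and 312 TPM, and the basophil protease genes Mcpt8 and Prss34 had 92.1 ± 4.09 TPM and 87.3 ± 8.93 TPM. Tpsab1, a mast cell tryptase, had no read, and the list summed to 262.3, 232.8 and 267.4 CPM.

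Several stromal and vessel genes differed between mice. The stromal list had 7 of 15 on, against 3 at a limit of 5 CPM and 8 without replicate 3, and summed to 393.3, 273.3 and 239.4 CPM. Cxcl12, the chemokine of niche cells, had 101, 39.6 and 12.4 CPM, Col1a1 had 25.9, 1.42 and 1.68 CPM, and Lepr, a marker of perivascular stroma, had 10.9, 3.18 and 1.46 CPM. All 3 were highest in replicate 1. Pdgfrb had 148, 161 and 169 CPM and Runx2 55.5, 52.5 and 44.5 CPM, which were even across libraries, while Pdgfra, Col3a1 and Dcn were not on. The endothelial list had 11 of 12 on and summed to 539.1, 540.6 and 412.9 CPM, and it shares Tie1, Tek, Emcn and Esam with the stem cell surface list and Vwf with the platelet list. Cdh5, VE-cadherin, had 5.21, 0.151 and 1.04 CPM, and Plvap and Stab2, of sinusoid endothelium, had 36.3, 15.1 and 16.7 CPM and 35.7, 10.8 and 8.60 CPM, again highest in replicate 1. What part such cells had in the levels of other genes was not tested.

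**Figure D4:**
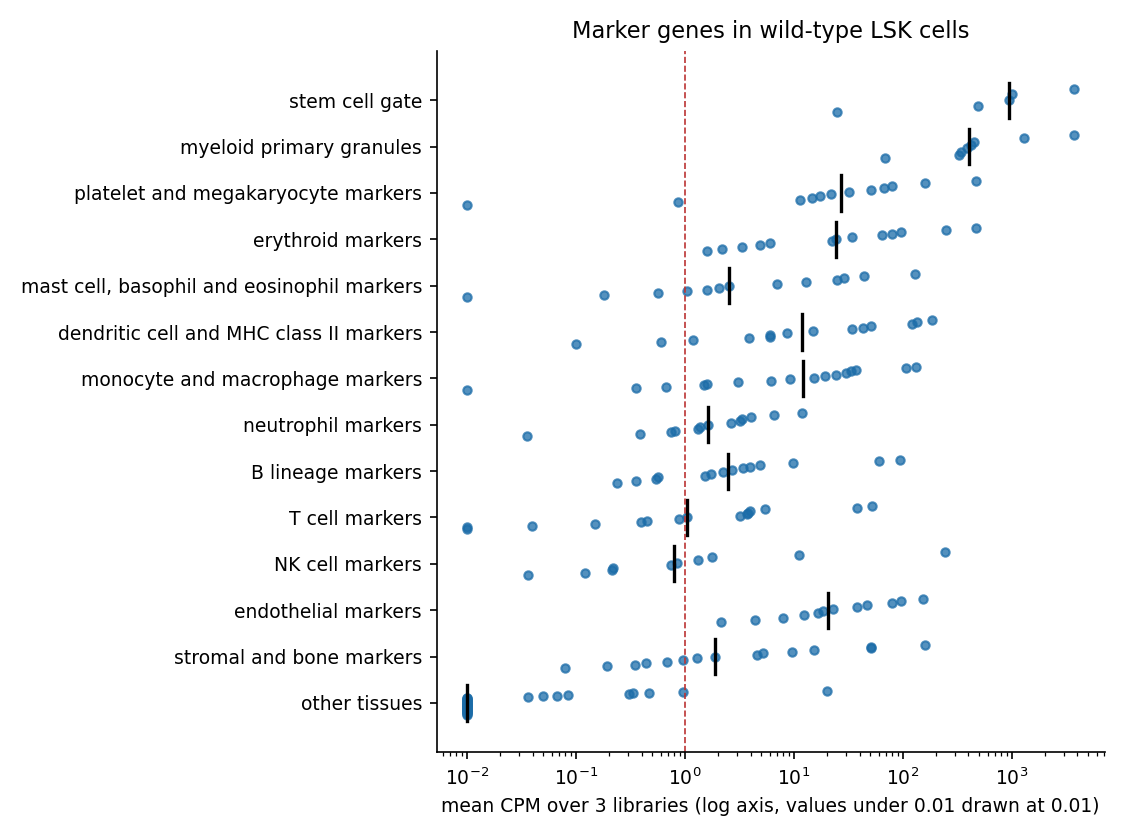
Mean CPM over the 3 wild-type libraries (log axis, values under 0.01 drawn at 0.01) of each marker gene, by cell type list, with 1 point per gene, the list's median as a vertical bar and 1 CPM as a dashed line. The row named stem cell gate holds the 5 genes checked against the label, Kit, Ly6a, Cd34, Flt3 and Mpo. Those genes and the primary granule genes lie to the right of the line. Mpo is in both rows, and Ly6a is the lowest of the 5 at 24.7 CPM. T cell and NK genes straddle the line, and nearly all genes of other tissues lie to its left.

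Genes of other organs were mostly silent. Of 34 genes that define tissues outside the marrow, such as Alb of liver, Ins2 of pancreas, Myh6 of heart and Snap25 of neurons, 26 were off, and 1 was on. That gene was Cela1, named for elastase of the pancreas, with 29.9, 23.8 and 44.0 TPM. None of 1092 olfactory receptor genes was on, and 1072 were off. None of 328 vomeronasal receptor genes and none of 42 beta-defensin genes was on. Of 49 keratin genes 4 were on, led by Krt18 at 94.0 ± 5.20 TPM, and of 38 taste receptor genes 2 were on, Tas1r1 at 16.0 ± 1.75 TPM and Tas1r3 at 1.37 ± 0.154 TPM.

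Genes every cell uses were close to complete. All 32 genes of the small ribosomal subunit were on, with a median of 619 TPM, and 45 of 46 of the large subunit, with a median of 386 TPM. So were 47 of 48 proteasome, 36 of 36 complex I, 17 of 17 ATP synthase, 74 of 75 mitochondrial ribosome and 7 of 7 chaperonin genes. The exception in the large subunit was Rpl24, with 31, 47 and 49 reads, and 47.0% of its exon length is overlapped and it has near-identical copies. Of the 13 proteins encoded by mitochondrial DNA only 8 were on, and 8 of the 13 genes have a near-identical copy in the nuclear genome, so their 0.480% share of protein-coding reads is uncertain.

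The share of genes on varied by chromosome. Among autosomes it ran from 42.0% on chromosome 14 to 59.6% on chromosome 8, against 51.5% over all protein-coding genes. It was 39.4% of 929 genes on the X chromosome. Olfactory and vomeronasal receptor genes, none of which was on, were kept in these shares, and their part in the differences was not tested. On the Y chromosome 5 of 175 genes were on, namely Ddx3y, Eif2s3y, Uty, Kdm5d and Gm47283.

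Promoter sequence was set beside level. The RefSeq table of mouse promoters (GRCm38.p6), 250 bases before to 50 after each listed start, matched 16492 protein-coding symbols, of which 13819 had 1 listed start. The 250 bases upstream of the RefSeq start are shown for 5 genes that were on and for 1 T cell gene without a read. The 5 set the gate and progenitor genes beside the leading granule gene and Fos, an immediate-early gene. They run 5′ to 3′ on the strand of the gene, and capitals mark CpG dinucleotides, the sites of DNA methylation. Kit has 2 listed starts and the first is shown.
Kit: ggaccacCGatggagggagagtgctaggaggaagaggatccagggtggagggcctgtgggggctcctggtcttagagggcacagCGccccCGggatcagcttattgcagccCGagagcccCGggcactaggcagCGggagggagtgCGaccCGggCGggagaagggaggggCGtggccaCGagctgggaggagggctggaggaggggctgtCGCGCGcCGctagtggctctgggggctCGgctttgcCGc
Flt3: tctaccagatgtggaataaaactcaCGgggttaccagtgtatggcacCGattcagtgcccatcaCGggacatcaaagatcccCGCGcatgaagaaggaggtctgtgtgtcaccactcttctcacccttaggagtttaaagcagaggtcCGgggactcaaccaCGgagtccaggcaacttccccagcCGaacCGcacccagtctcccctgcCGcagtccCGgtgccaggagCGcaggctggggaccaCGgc
Cd34: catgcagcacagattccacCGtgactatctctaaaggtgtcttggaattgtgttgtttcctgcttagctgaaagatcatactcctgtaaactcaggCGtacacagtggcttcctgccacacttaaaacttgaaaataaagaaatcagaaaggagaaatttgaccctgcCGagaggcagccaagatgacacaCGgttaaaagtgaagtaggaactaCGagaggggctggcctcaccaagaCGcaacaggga
Mpo: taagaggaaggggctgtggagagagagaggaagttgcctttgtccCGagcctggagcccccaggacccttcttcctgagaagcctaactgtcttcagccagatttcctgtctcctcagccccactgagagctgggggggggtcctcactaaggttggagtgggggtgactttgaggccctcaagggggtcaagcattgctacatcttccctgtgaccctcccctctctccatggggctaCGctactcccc
Fos: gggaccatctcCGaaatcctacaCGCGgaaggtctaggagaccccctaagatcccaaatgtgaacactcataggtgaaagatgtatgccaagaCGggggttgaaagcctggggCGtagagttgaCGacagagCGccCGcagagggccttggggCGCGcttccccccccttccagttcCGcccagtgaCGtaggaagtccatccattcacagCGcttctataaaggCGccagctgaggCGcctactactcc
Cd3e: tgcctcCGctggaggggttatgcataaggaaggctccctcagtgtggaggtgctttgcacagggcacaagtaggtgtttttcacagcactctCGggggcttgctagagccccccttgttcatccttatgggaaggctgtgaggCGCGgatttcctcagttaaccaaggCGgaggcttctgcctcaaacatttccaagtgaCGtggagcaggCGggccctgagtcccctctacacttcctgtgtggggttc

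These windows ranged from CpG-rich to CpG-poor among genes that were all on except Cd3e. The Kit window (chr5:75574737-75574986, plus strand) held 17 CpG, that of Fos (chr12:85473640-85473889, plus) 15, that of Flt3 (chr5:147400490-147400739, minus) 13 and that of Cd34 (chr1:194938571-194938820, plus) 6. The Mpo window (chr11:87793534-87793783, plus) held 2, fewer than the 7 in the window of Cd3e (chr9:45009612-45009861, minus). Some RefSeq starts differ from the gene coordinates given above. By those coordinates most of the Mpo window, part of the Kit window and the end of the Cd34 window lie inside the gene. Over the full 300 bases the ratio of observed to expected CpG was 0.0871 for Mpo, 0.374 for Cd34, 0.621 for Kit, 0.647 for Flt3, 0.775 for Fos and 0.333 for Cd3e.

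Across genes with 1 listed start, 76.1% of the 7168 that were on had a CpG ratio of 0.6 or more, against 37.3% of the 1890 that lay between and 12.6% of the 4761 that were off. For all 13819 the share was 48.9%. Without olfactory and vomeronasal receptor genes the off share was 16.7%. Among genes that were on, the share was 54.3% at means from 1 to under 10 CPM, 79.4% from 10 to under 100 CPM and 83.6% from 100 to under 1000 CPM. Genes are not independent replicates, so these shares are descriptions without a test.

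Short motifs were counted in the same windows on both strands, and no motif's letters contain another's. The TATA box core TATAAA was in 13.7% of all windows, 6.49% of those of genes that were on and 25.1% of those of genes that were off. Among the 28 genes with 1 start and a mean of 1000 CPM or more, 8 (28.6%) held it: B2m, Calr, Eef2, Fos, H2-D1, H3f3b, Ppia and Rplp0, the last with near-identical copies. The GC box GGGCGG was in 66.8% of on and 17.9% of off windows (47.1% of all). The ETS site CCGGAAGT was in 9.47% and 0.777% (5.46% of all), and the YY1 site AAGATGGC in 5.54% and 1.09% (3.42% of all). The other way round, the RUNX site TGTGGTT was in 3.7% of on and 6.95% of off windows (4.94% of all) and the GATA site AGATAA in 6.01% and 15.8% (9.9% of all). The median window of genes that were on had 61.0% GC against 47.0% for genes that were off, and its part in these shares was not tested. CCAAT differed little, at 39.7% and 40.1% (39.3% of all).

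The 3 mice were alike for most genes. Of the 11325 genes on, 9514 (84.0%) had a highest library under 1.5 times the lowest, and 10810 (95.5%) under 2 times. The median coefficient of variation fell from 25.7% at means of 1 to under 3 CPM to 7.76% at 100 to under 300 CPM, and it was 9.59% at 1000 CPM or more. A ratio of 2 or more was found for 515 genes, of which replicate 3 was the highest library for 221, replicate 1 for 172 and replicate 2 for 122.

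Of the 12 genes with the largest ratios, 7 were lowest and 5 highest in replicate 3. The largest ratio at a mean of 10 CPM or more was that of Atf3, a stress-induced factor, with 44.2, 53.9 and 1.75 CPM. Nr4a1, an orphan nuclear receptor switched on by stimulation, had 344, 356 and 14.0 CPM. Plk2, Dusp5 and Trib1, which encode a kinase, a phosphatase of ERK and a pseudokinase, were lowest in that library too, with 160.5, 129 and 23.5 CPM for Plk2, 132, 104 and 20.2 CPM for Dusp5 and 41.1, 30.4 and 6.997 CPM for Trib1. Of the exon length of Dusp5, 22.1% overlaps another gene. The immediate-early list summed to 10810, 16370 and 11650 CPM, highest in replicate 2.

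Heat-shock genes differed in direction. Hspb1, HSP27, had 8.34, 18.2 and 59.9 CPM, with a near-identical copy, and Hspa1b was quoted above. Hspa1a, Dnajb1 and Hspe1, named after their values were seen, had 324, 477 and 1269 CPM, 514, 697 and 1293 CPM and 169, 195 and 355 CPM, each highest in replicate 3. Hspa1a, Hspa1b and Hspd1 each have a near-identical copy. Hspd1, the partner of HSPE1, had 525, 551 and 375 CPM, lowest there, as were Hspa8, Hsp90ab1 and Hspa5. The remaining genes of the 12 were the stromal genes Col1a2, with 36.2, 5.94 and 3.50 CPM, and Cxcl12, both lowest in replicate 3, and, highest there, the platelet gene Ppbp, Plbd1, a phospholipase-like gene of myeloid cells with 5.82, 15.3 and 33.5 CPM, and the predicted genes Gm47283, on the Y chromosome with a near-identical copy, and Gm10382, with 41.0% of its exon length overlapped. Handling times, cell numbers and sort purity were not given in the sources used here, and their part in these differences was not tested.

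**Figure D5:**
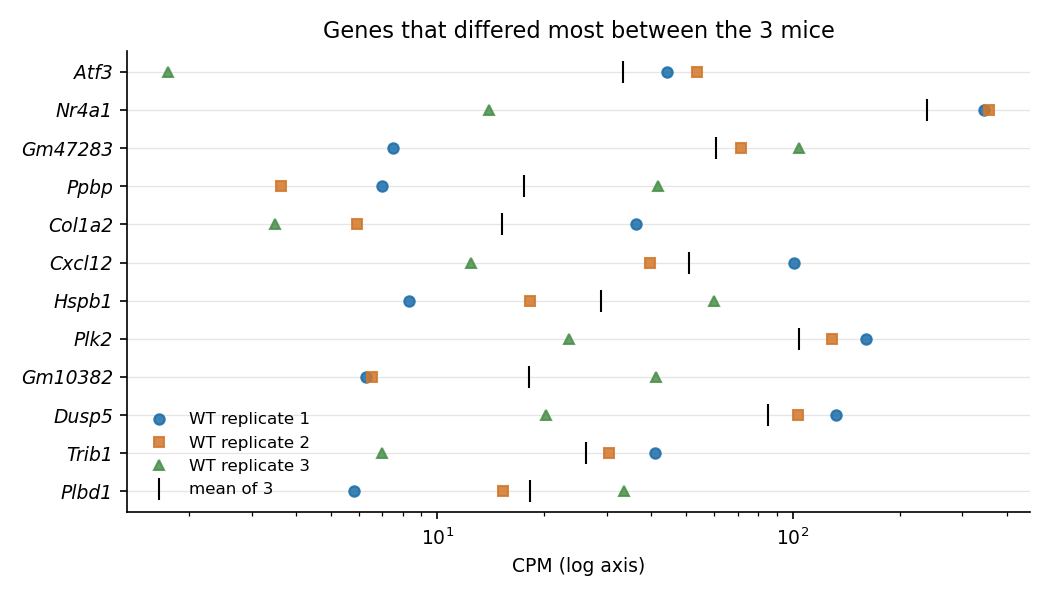
CPM (log axis) in each wild-type library of the 12 protein-coding genes with the largest ratio of highest to lowest library at a mean of 10 CPM or more. Atf3, Nr4a1, Plk2, Dusp5, Trib1, Col1a2 and Cxcl12 are lowest in replicate 3, and the other 5 are highest there.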

How the data were processed

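Libraries were prepared from RNA of sorted LSK cells with a SMART-Seq v4 kit, per the labels' protocols. That kit amplifies cDNA without molecular identifiers and does not mark strand, so floors cover counting error only, and reads of overlapping or antisense genes cannot be told apart. The deposited values are read counts per Ensembl gene, not normalised, made by the authors with STAR and HTSeq on GRCm38, per the submitters' processing notes. Neither versions nor annotation release nor strand setting was given there. The 3 files each held 55487 genes. The rows that name no gene were left out; per library they held reads outside genes (6.11%, 6.61% and 8.41%), ambiguous between genes (6.46%, 6.33% and 6.29%), not uniquely aligned (4.46%, 4.38% and 5.27%) and not aligned (2.48%, 1.99% and 2.08%).

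GENCODE M21, matched on the identifier for 55227 genes, gave symbols, biotypes and exon lengths. CPM used all reads in genes, and TPM used merged exon length over the 21974 protein-coding genes. Near-identical copies were found with minimap2 2.31 (at least 95% identity over 50% of the longest transcript). Such genes were 295 of those on, and 719 of those on had over 20% of their exon length overlapped by another gene. Classes and TPM were tested on simulated data. Python 3.11.15 and pandas 2.3.3 were used, with edgeR 4.0.16 and DESeq2 1.42.0 in R 4.3.3 for alternative scalings. No p-value was computed, and the Brm-/- libraries were not analysed here. Members and lists were chosen with earlier results of these data known.

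Genes were named by a rule: the 25 highest by CPM and 15 by TPM, the 5 genes checked against the label, all members of lists of up to 15 genes and the 6 highest and the off members of longer ones, the 30 highest transcription factors and leading or solitary members of their families, sets of related genes, the 12 genes with the largest ratio between libraries, and 3 on each side of the limit for on. Other members of longer lists were named after their values were seen. A few members of the lists are not reported here by name, and the counts include them.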

Additional observations from a re-analysis of the deposited data

How the results depend on the processing

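Of 41 alternative values of the main counts and shares, 40 stayed within 1.5 times the count, or within 1 SD of the share. That tally is a weak check, since 1.5 times is wide for such counts. Rescaling libraries could change the share only through the order of genes. Leaving out a library could only keep or raise the counts of genes on and off. The count of genes on ran from 9860 at 5 CPM in each library to 11861 at 0.5 CPM, and from 11450 to 11456 with 1 library left out. With TMM factors it was 11333 and with median-of-ratios factors 11324. The count of transcription factor genes on ran from 226 to 280, and from 269 to 271 with 1 library left out. The count of genes off ran from 6522 with no read to 8537 at up to 10 reads, and from 7724 to 7809 with 1 library left out. Other scalings of the off count were not run, since that rule counts unscaled reads. The top 100 genes held 13.06% to 13.25% of protein-coding reads with 1 library left out, and by TPM the top 100 held 17.9%, since another unit and other genes enter. Of 27 sets of related genes, 23 kept their highest gene with the longest transcript as the length, 25 by CPM, and 25 to 27 with 1 library left out. Of 165 alternatives for single genes and lists, 13 moved: Mpo was at 3748 TPM by longest transcript, neutrophil genes on numbered 2 at 2 or 5 CPM and 8 at 0.5 CPM, B lineage genes 5 at 2 CPM and 3 at 5 CPM, and T cell genes 2, stromal genes 3 and ligand genes 5 at 5 CPM. NK genes on numbered 5 without replicate 3, an alternative chosen after seeing the data and run for each list. The rest were the levels of Kit, Flt3 and Cd34 by longest transcript, given above. A level near 1 CPM rests on 28 to 37 reads per library. No paired analysis was possible because a single group was described.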

Other observations

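Genes outside the protein-coding biotype held under 2% of reads in each library. That class includes antigen receptor genes, which do encode protein. Its leading gene was Ighm, the constant region of immunoglobulin M, with 1282, 618 and 699 CPM. Some immunoglobulin genes, picked after their values were seen, differed between mice. Igha, the constant region of immunoglobulin A, had 503, 13045 and 3 reads, and Iglv1, a lambda variable gene, had 3048, 5999 and 66 reads. Igkc, the kappa constant region, had 116, 26.5 and 72.0 CPM. Ighd, the constant region of immunoglobulin D, was more even, with 5.38, 6.57 and 6.21 CPM. Jchain, which joins secreted immunoglobulin A and M, stood at 117, 129 and 33.9 CPM. These values do not show which cells the reads came from, and the part of such cells in the other levels was not tested.

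Values of 6 long non-coding RNAs, picked after they were seen, follow. Malat1, a nuclear RNA of most cells, had 528, 572 and 416 CPM, and Neat1, the scaffold of paraspeckles, had 195, 168 and 103 CPM, both lowest in replicate 3. Gas5, a host gene of small nucleolar RNAs, had 341, 326 and 274 CPM. Firre, on the X chromosome, had 98.1, 107 and 100.3 CPM. Peg13, an imprinted RNA, had 139, 171 and 147 CPM. Gm42047, an RNA without an assigned name, differed more, with 99.7, 154 and 39.8 CPM.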
